A study of Danio rerio with 12 samples.

Results

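The embryonic globin genes of the zebrafish were followed in embryos that carried 2 copies or 1 copy of a knock-in that disrupts etv2, which encodes an ETS transcription factor of early endothelium and blood. They were taken as the rows of both deposited tables whose gene symbol starts with hbae or hbbe, which gave 7 of 31172 rows. The 7 rows comprised 3 of the alpha type, which were hbae1 row A (ENSDARG00000089475), hbae1 row B (ENSDARG00000089124) and hbae3 (ENSDARG00000079305). The other 4 were of the beta type, which were hbbe1.1 row A (ENSDARG00000089963), hbbe1.1 row B (ENSDARG00000087390), hbbe2 (ENSDARG00000045143) and hbbe3 (ENSDARG00000038147). The letters A and B tell apart rows that share a symbol but not an identifier.

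Hemoglobin, the oxygen carrier of red cells, is built of alpha-type and beta-type globin chains that each hold a heme group. Zebrafish embryos first make embryonic chains in the primitive red cells of the intermediate cell mass, and adult-type chains take over in red cells formed later. Embryonic globin transcripts are abundant in these cells and are commonly used to mark them in whole embryos.

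RNA was sequenced from whole embryos, each library being made from a batch of 15 to 20 animals frozen together on dry ice. One genotype was homozygous for the allele etv2 Gt(2A-Gal4)ci32 and the other was heterozygous for it. Both came from crosses between carriers that also held a UAS:GFP reporter, which Gal4 made from the etv2 locus switches on. Embryos were sorted by their pattern of GFP, so the genotype of a batch rests on that sort, and the heterozygotes also carried 1 disrupted copy. A wild-type group was not analysed here. Each stage had 3 homozygous and 3 heterozygous libraries, 12 in all, and embryos were kept at 24 °C for the 15-somite stage and at 28 °C for 24 hpf (hours post fertilization). The homozygous batches are called hom 1 to hom 3 at 24 hpf and hom 2, a and b at the 15-somite stage, where 2 columns had the same name. The heterozygous batches are called het 1 to het 3.

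Every level below is a log2 value relative to the median of that row over the 6 libraries of its stage, as the authors deposited it, and every difference is homozygous minus heterozygous on that log2 scale. A row was called where limma's moderated test, after Benjamini-Hochberg adjustment across every row tested, gave p below 0.05. The total depth is not known from such values, but steps between low values placed the relative depth of the libraries at 0.928 to 1.16 in the earlier table and at 0.966 to 1.07 in the later one. The targeted gene etv2 was lower in every homozygous library, with a difference of -2.83 at the 15-somite stage (SE 0.10, adjusted p = 0.000228) and of -3.15 at 24 hpf (SE 0.23, adjusted p = 0.00325). Without het 1 the later difference was -3.14, with adjusted p = 0.0573. Markers of endothelial cells separated the genotypes at both stages: 18 of 19 fell at the 15-somite stage, where 3.77% of all rows tested fell, and 16 of 19 at 24 hpf, where 0.287% did, and 0 rose.

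Binary steps in the deposited numbers, which keep a trace of each row's original size, sorted the rows tested into a lower and an upper level class, and all 7 globin rows fell in the upper class at 24 hpf. In the earlier table hbbe1.1 row B, hbae1 row B and hbbe2 fell in the lower class, which starts at 16 normalized units, and hbbe1.1 row A, hbae1 row A, hbae3 and hbbe3 in the upper class. These units are not corrected for transcript length, and the stages were deposited as separate tables, so no row was ranked against another and no level was compared between stages. All 7 rows passed the minimum of 16 units at both stages. Copies within the globin clusters are near-identical, so reads may be split between them in a way that single rows do not show, and the values of single rows are uncertain for that reason.

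At the 15-somite stage, when primitive red cells first form, the embryonic globin rows did not differ in 1 direction between the genotypes. No row was called in limma, where 3.77% of the 18492 rows tested fell and 0.995% rose. Of the 7 rows, 5 lay above 0, as did 50.6% of all rows tested, and 2 below, with a median difference of 0.06, against 0.0031 over all rows tested. The differences ran from -0.64 for hbbe1.1 row B to 0.22 for hbae1 row B, and 1 row, hbbe1.1 row B, was lower at an unadjusted p below 0.05, as were 12% of all rows tested.

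**Figure D1:**
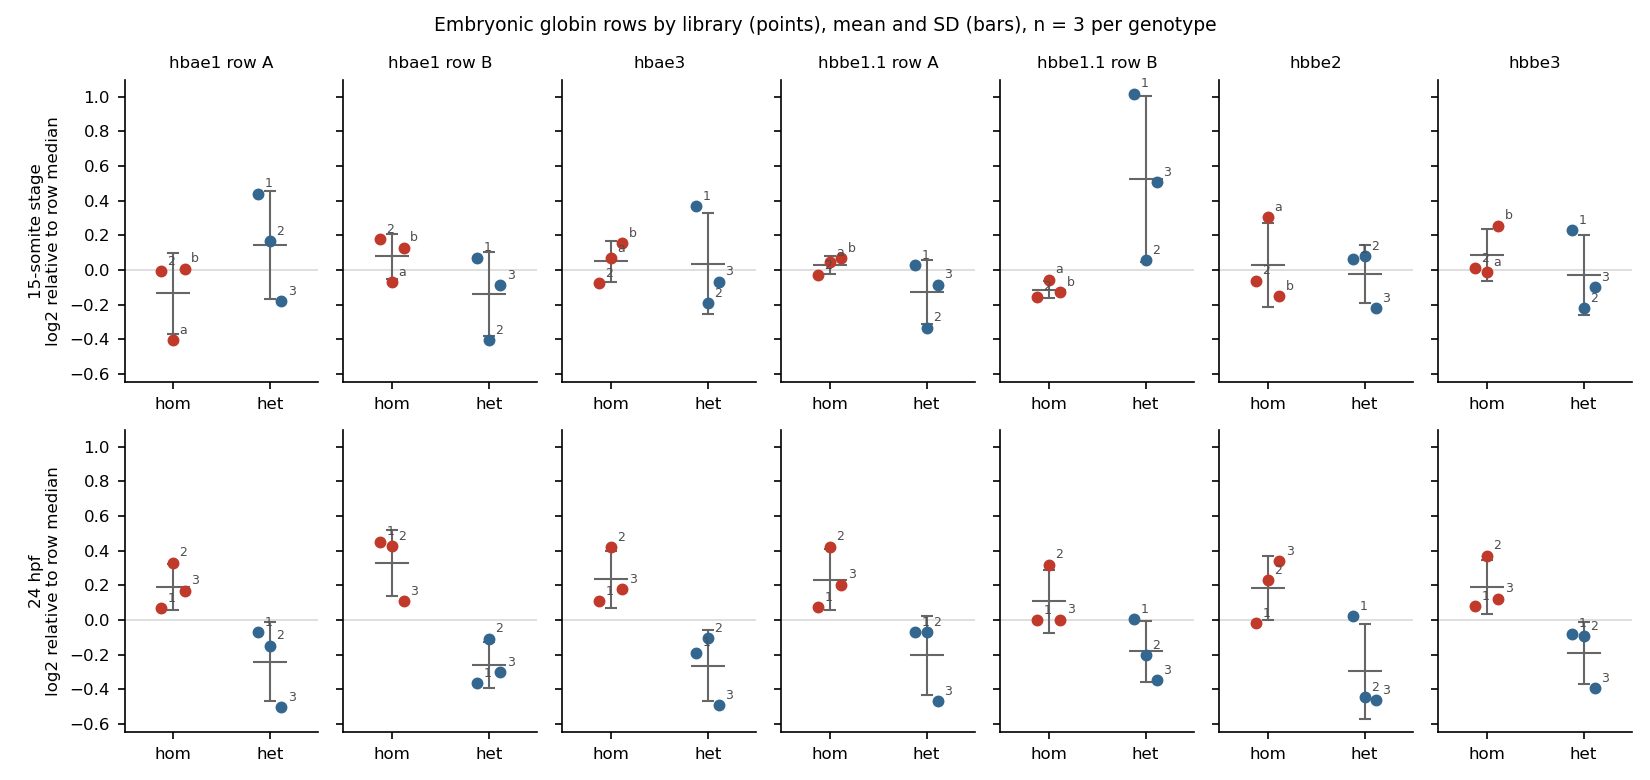
Level of each embryonic globin row in every library, as log2 relative to the row's median within its stage (y axis), at the 15-somite stage (upper panels) and at 24 hpf (lower panels), with homozygous libraries (hom, red) left of heterozygous ones (het, blue). Points are libraries with their replicate names, and bars are the mean and SD of 3 libraries. At 24 hpf, 5 of 7 rows have every homozygous library above every heterozygous one, as do 6.28% of all rows tested. At the 15-somite stage 6 of 7 rows overlap, and 29% of all rows tested do not.

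Among the alpha-type rows at the 15-somite stage, hbae1 row A stood at -0.0066, -0.41 and 0.0066 in homozygous batches 2, a and b, against 0.44, 0.17 and -0.18 in heterozygous batches 1, 2 and 3. It was highest in het 1 and lowest in hom a, and the genotypes overlapped (difference -0.28, SE 0.18, adjusted p = 0.412). The second row of that symbol, hbae1 row B, went the other way in sign, with 0.18, -0.071 and 0.13 in the homozygous libraries, against 0.071, -0.41 and -0.090 in the heterozygous libraries. Its difference was 0.22 (SE 0.20, adjusted p = 0.557), and het 2 was the lowest library. The row of hbae3, a further alpha-type chain gene, stood at -0.077, 0.068 and 0.16 in homozygous batches 2, a and b, against 0.37, -0.19 and -0.068 in the heterozygous libraries. Both its highest and its lowest library were heterozygous, and the difference was 0.013 (SE 0.15, adjusted p = 0.971).

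Among the beta-type rows at this stage, hbbe1.1 row B stood at -0.16, -0.057 and -0.13 in homozygous batches 2, a and b, against 1.02, 0.057 and 0.51 in heterozygous batches 1, 2 and 3. All 3 homozygous libraries lay below all 3 heterozygous ones, and het 1 stood far above the other libraries. This was the 1 row of 7 whose genotypes did not overlap, as did not 29% of all rows tested, 15.6% with homozygotes lower. Its difference was -0.64 (SE 0.26, 95% interval -1.24 to -0.04, 1.56-fold lower, adjusted p = 0.206). Without het 1 it was -0.39. The other row of that symbol, hbbe1.1 row A, stood at -0.028, 0.043 and 0.069 in the homozygous libraries, against 0.028, -0.33 and -0.085 in the heterozygous libraries (difference 0.16, SE 0.10, adjusted p = 0.405). Its genotypes overlapped because het 1 reached the homozygous range, and het 2 was lowest.

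The row of hbbe2 stood at -0.063, 0.30 and -0.15 in homozygous batches 2, a and b, against 0.063, 0.079 and -0.22 in heterozygous batches 1, 2 and 3 (difference 0.06, SE 0.20, adjusted p = 0.900). For hbbe3 the values were 0.012, -0.012 and 0.26 in the homozygous libraries, against 0.23, -0.22 and -0.10 in the heterozygous libraries (difference 0.12, SE 0.13, adjusted p = 0.649). Both rows overlapped between the genotypes. Looked up by symbol in the RefSeq annotation of assembly GRCz12tu, both fall in the globin cluster of chromosome 12. The other 5 rows fall in the larger cluster of chromosome 3 by the same lookup. For hbbe2, hbbe1.1 row A and hbbe1.1 row B it rests on the deposited symbol alone.

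Because copies may share reads, the mean over the 7 rows was taken in each library. In the earlier table it was -0.020, -0.019 and 0.048 in homozygous batches 2, a and b, against 0.32, -0.12 and -0.034 in heterozygous batches 1, 2 and 3. The homozygous libraries lay close together, inside the wider range of the heterozygous ones. The mean was 0.0029 ± 0.039 in homozygotes and 0.054 ± 0.23 in heterozygotes (SD, n = 3 each), a difference of -0.05, or 0.965-fold. Without het 1 the difference was 0.08, so its sign rested on that library.

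At 24 hpf, when circulation begins, all 7 embryonic globin rows stood higher in homozygotes, by 0.29 to 0.59, or 1.22-fold to 1.5-fold, and none was called. Over the 19194 rows tested, 0.0313% rose and 0.287% fell, which is 6 and 55 rows, and 0 to 7 and 16 to 42 with 1 library left out. The adjusted p of the 7 rows in limma lay between 0.181 and 0.70. At an unadjusted p below 0.05 all 7 were higher, as were 3.11% of all rows tested, and under the alternative settings this count was 5 to 7. The median difference of the rows was 0.44, against 0.0020 over all rows tested, of which 50.7% lay above 0. The rows are not independent of each other, since they share libraries and may share cells and reads.

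Among the alpha-type rows at 24 hpf all 3 separated the genotypes with homozygotes higher, as did 6.28% of all rows tested. The row with the largest difference, hbae1 row B, stood at 0.45, 0.43 and 0.11 in homozygous batches 1, 2 and 3, against -0.36, -0.11 and -0.30 in heterozygous batches 1, 2 and 3. Every homozygous library lay above every heterozygous one, with a difference of 0.59 (SE 0.11, 95% interval 0.32 to 0.85, 1.5-fold, adjusted p = 0.181). For hbae3 the values were 0.11, 0.42 and 0.18 in the homozygous libraries, against -0.19, -0.11 and -0.49 in the heterozygous libraries, again with no overlap (difference 0.50, adjusted p = 0.364, SE 0.12, 1.41-fold). The row hbae1 row A stood at 0.070, 0.33 and 0.17 in homozygous batches 1, 2 and 3, against -0.070, -0.15 and -0.50 in heterozygous batches 1, 2 and 3 (difference 0.43, SE 0.12, 1.35-fold, adjusted p = 0.495). In hbae3 and hbae1 row A hom 2 was the highest library and het 3 the lowest, and hbae1 row A did not overlap either.

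Among the beta-type rows at 24 hpf, hbbe1.1 row A stood at 0.072, 0.42 and 0.20 in homozygous batches 1, 2 and 3, against -0.072, -0.072 and -0.47 in heterozygous batches 1, 2 and 3. There was no overlap, with hom 2 highest and het 3 lowest (difference 0.44, SE 0.13, 1.35-fold, adjusted p = 0.536). For hbbe3 the values were 0.080, 0.37 and 0.12 in the homozygous libraries, against -0.080, -0.095 and -0.40 in the heterozygous libraries, also with no overlap (difference 0.38, SE 0.11, 1.30-fold, adjusted p = 0.511).

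The remaining beta-type rows overlapped at 24 hpf, since het 1 stood above hom 1 in both and above hom 3 in hbbe1.1 row B. The row of hbbe2 stood at -0.021, 0.23 and 0.34 in homozygous batches 1, 2 and 3, against 0.021, -0.44 and -0.46 in heterozygous batches 1, 2 and 3 (difference 0.48, SE 0.15, 1.39-fold, adjusted p = 0.557). For hbbe1.1 row B the values were -0.0019, 0.32 and 0.0019 in the homozygous libraries, against 0.0042, -0.20 and -0.35 in the heterozygous libraries. This row had the smallest difference of the 7, at 0.29 (SE 0.12, 95% interval 0.0042 to 0.57, 1.22-fold, adjusted p = 0.70). In all, 5 of the 7 rows had genotypes that did not overlap, all with homozygotes higher, as did 6.28% of all rows tested. The library hom 2 was highest in 5 rows and het 3 lowest in 6.

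**Figure D2:**
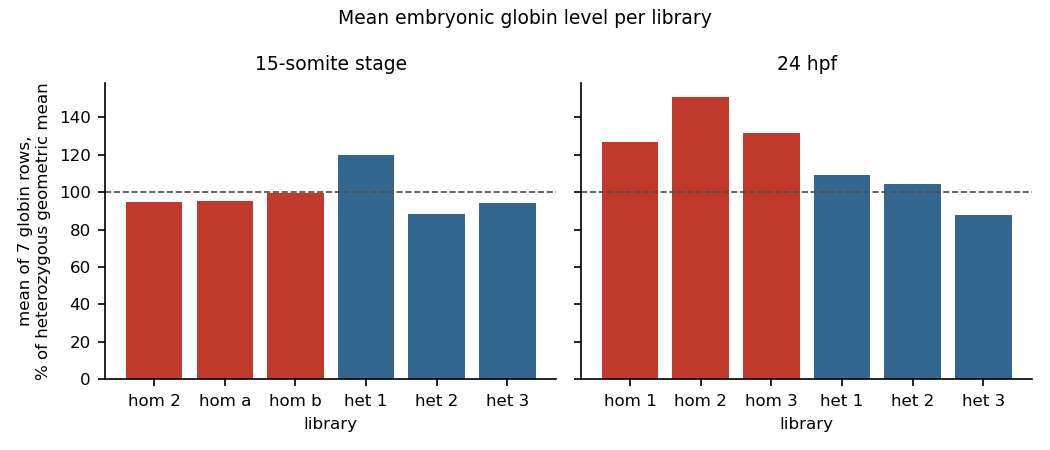
Mean of the 7 embryonic globin rows in each library, as a percent of the heterozygous geometric mean of that stage (y axis, from 0), with homozygous libraries in red left of heterozygous libraries in blue and the dashed line at 100%. At 24 hpf the homozygous libraries stand at 127%, 151% and 131%, and the heterozygous ones at 109%, 105% and 87.5%.

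The mean over the 7 rows at 24 hpf was 0.11, 0.36 and 0.16 in homozygous batches 1, 2 and 3, against -0.11, -0.17 and -0.43 in heterozygous batches 1, 2 and 3. Every homozygous library thus stood above every heterozygous one, by the least between hom 1 and het 1. The mean was 0.21 ± 0.13 in homozygotes and -0.23 ± 0.17 in heterozygotes (SD, n = 3 each), a difference of 0.44, or 1.36-fold, and it lay between 0.35 and 0.51 with 1 library left out. By chain type the difference was 0.51 for the 3 alpha-type rows and 0.40 for the 4 beta-type rows. By cluster it was 0.45 for the 5 rows of chromosome 3 and 0.43 for the 2 rows of chromosome 12. In whole embryos, fewer or more cells of a type and less or more RNA per cell cannot be told apart.

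The rows followed each other more closely at the later stage. Over the 21 pairs of rows and the 6 libraries of a stage, Pearson's r ran from 0.54 to 0.99 at 24 hpf, with a median of 0.87 and 16 pairs above 0.8. In the earlier table r ran from -0.30 to 0.89, with a median of 0.23 and 3 pairs above 0.8. These values are descriptions over libraries that include both genotypes, and rows that share reads can follow each other for that reason.

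**Figure D3:**
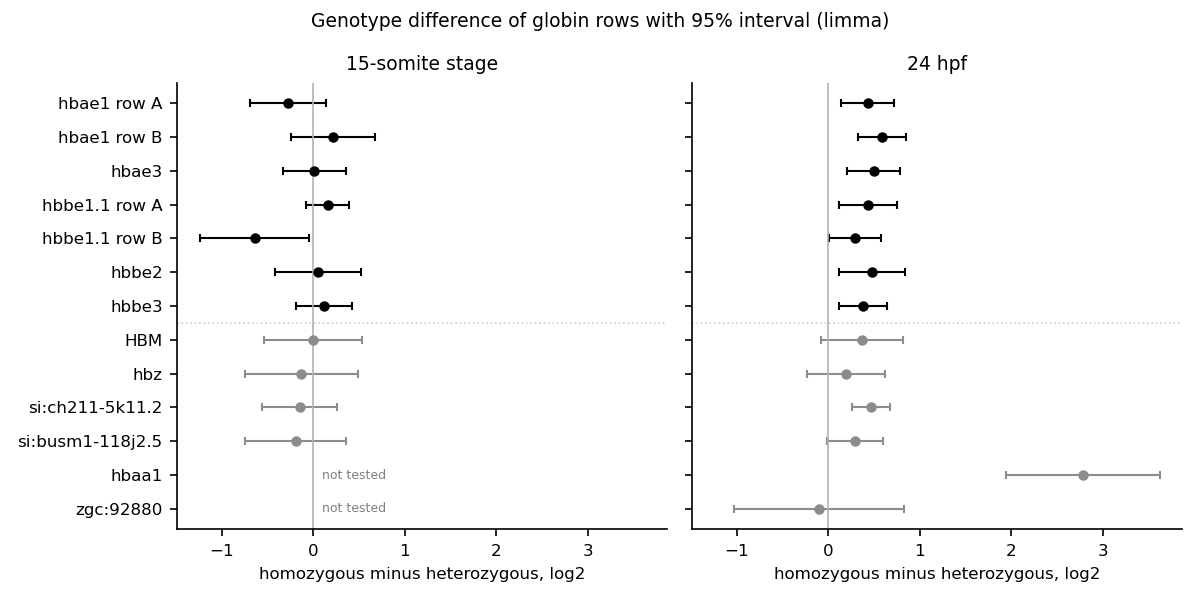
Homozygous minus heterozygous difference (x axis, log2) of each globin row at the 15-somite stage (left) and at 24 hpf (right), with 95% intervals from limma, n = 3 libraries per genotype. Black points are the 7 embryonic globin rows, which span -0.64 to 0.22 in the left panel and 0.29 to 0.59 in the right one. Grey points below the dotted line are further globin rows, of which hbaa1 stands at 2.78 at 24 hpf. That row passed the level minimum only through its homozygous libraries, so its difference is uncertain.

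Change of the genotype difference between the stages was tested as an interaction, over 17756 rows that had passed at both stages. It lay above 0 for all 7 rows, from 0.27 for hbbe3 to 0.93 for hbbe1.1 row B. The share of all rows tested that lay above 0 was not counted for the interaction. None was called in limma (adjusted p 0.113 to 0.469), where 3.75% of all rows were called, and 3 rows, hbae1 row A, hbbe1.1 row B and hbae3, passed an unadjusted p below 0.05, as did 10.6% of all rows in that direction. The interaction of hbae1 row A was 0.71 (SE 0.23, adjusted p = 0.113) and that of hbbe1.1 row B was 0.93 (SE 0.31, adjusted p = 0.123). With het 2 of the 15-somite stage left out hbbe1.1 row B was called (1.16, adjusted p = 0.0498), and with het 3 of that stage left out hbae1 row A was called (0.87, adjusted p = 0.04997). These were the only 2 calls in 91 fits of the globin rows under 13 alternatives. The share of all rows called in those fits was not counted.

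Further embryonic globin genes sit in the tables under other symbols. By current gene names or RefSeq synonyms these are HBM (hbae4), hbz (hbae5), si:ch211-5k11.2 (hbae1.2), all of the alpha type, and si:busm1-118j2.5, which RefSeq gives as a synonym of hbbe1.1. They were picked after their values were seen, and none was called at either stage. At 24 hpf si:ch211-5k11.2 stood at 0.22, 0.39 and 0.14 in homozygous batches 1, 2 and 3, against -0.16, -0.14 and -0.36 in heterozygous batches 1, 2 and 3. It did not overlap, as did not 6.28% of all rows tested with homozygotes higher. Its difference was 0.47 (SE 0.09, 1.38-fold, adjusted p = 0.187). The differences of HBM, si:busm1-118j2.5 and hbz at 24 hpf were 0.37, 0.30 and 0.19, all above 0, as were 50.7% of all rows tested. HBM and hbz overlapped, and si:busm1-118j2.5 did not, by a small margin (0.0036 in hom 1 against -0.0036 in het 1). Earlier, at 15 somites, these 4 rows lay at -0.0020 for HBM, -0.13 for hbz, -0.15 for si:ch211-5k11.2 and -0.19 for si:busm1-118j2.5. With them the mean over 11 rows differed by -0.08 at the 15-somite stage and by 0.40 at 24 hpf.

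Among adult-type globins, hbaa1 (ENSDARG00000079078), the row of an alpha-type chain, stood higher in homozygotes at 24 hpf. It was taken as adult hbaa1 by its deposited symbol, and its current symbol is si:ch211-5k11.8. It stood at 1.21, 1.02 and 0.99 in homozygous batches 1, 2 and 3, against -1.62, -2.52 and -0.99 in heterozygous batches 1, 2 and 3. All homozygous libraries lay above all heterozygous ones, as in 6.28% of all rows tested. The difference was 2.78 (SE 0.36, 95% interval 1.94 to 3.62, 6.88-fold, adjusted p = 0.0317). Called higher at that stage were 6 rows, or 0.0313% of all rows tested, and hbaa1 was 1 of them. The row is low, with a median below 31.8 normalized units, and the call was lost without hom 1, hom 2, hom 3 or het 1 (adjusted p = 0.180, 0.151, 0.189 and 0.155). That bound puts every heterozygous library below the minimum of 16 units, so the row passed it only through its homozygous libraries. Both the call and the size of its difference are uncertain for that reason, and no conclusion is drawn from the call. In the earlier table hbaa1 held the value 0 in every library, as a row at the floor does, and it was not tested. The adult beta-type row zgc:92880 (hbba2) overlapped between the genotypes at 24 hpf (difference -0.10, SE 0.40, adjusted p = 0.978). The rows of ba1 and of si:ch211-5k11.6 (hbaa2) were too low to test at either stage.

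Globins of other tissues were listed as well, and none was called. The row of mb, the myoglobin gene of muscle, differed by -0.32 at the 15-somite stage and by 0.32 at 24 hpf (adjusted p = 0.404 and 0.829). The row of cygb1, a cytoglobin gene, differed by 0.36 and -0.18 (adjusted p = 0.0803 and 0.838). The rows of ngb, cygb2 and xgb were too low to test at either stage.

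Regulators that act upstream of globin genes were counted at both stages. Of 20 erythroid regulators tested at the 15-somite stage 3 fell and 0 rose, with a median of -0.04, and of 19 tested at 24 hpf 1 fell and 0 rose, with a median of 0.02. Over all rows tested, 3.77% fell and 0.995% rose at the 15-somite stage, and 0.287% and 0.0313% did at 24 hpf. The 3 were tal1 (-1.60, SE 0.08) and lmo2 (-1.21, SE 0.09), partners in a transcription complex of blood and endothelial progenitors, and the Krüppel-like factor gene klf3 (-0.58, SE 0.07). At 24 hpf lmo2 fell by 0.63 (adjusted p = 0.0232). The unadjusted p was below 0.05 for 5 higher and 5 lower at the 15-somite stage, against 9.63% and 12% of all rows tested. Among the 5 higher was klfd (klf1), at 0.83 (SE 0.26, adjusted p = 0.127), which was not called. At 24 hpf 2 were higher and 1 lower at that unadjusted level, against 3.11% and 3.95% of all rows tested. Early expression of gata1a, which encodes the transcription factor that directs red cell development, stood at 0.15, 0.33 and 0.25 in homozygous batches 2, a and b of the 15-somite stage, against -0.18, -0.17 and -0.15 in the heterozygous ones. Its homozygous libraries all lay above its heterozygous ones, where 29% of all rows tested did not overlap in either direction. The difference of gata1a was 0.41 (SE 0.16, adjusted p = 0.198) and was not called. With the level class taken from values at or above 0 its SE was 0.068 and it was called (adjusted p = 0.0251). With 1 prior spread for all rows its SE was 0.074 (adjusted p = 0.0609). Whether gata1a was called thus depended on the level class, which sets part of the SE in limma. At 24 hpf gata1a overlapped (difference 0.07, SE 0.16, adjusted p = 0.960).

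Globin chains need heme, and the genes of heme synthesis and transport were listed for that reason. None of the 20 tested was called at either stage in limma. Over all rows tested, 3.77% fell and 0.995% rose at the 15-somite stage, and 0.287% and 0.0313% did at 24 hpf. At 24 hpf 18 of 20 lay above 0, with a median of 0.16, where 50.7% of all rows tested lay above 0. The unadjusted p was below 0.05 for 11 higher and 1 lower, where 3.11% and 3.95% of all rows tested stood so. Of the same genes at the 15-somite stage, 9 lay above 0 and 11 below, with a median of -0.02, where 50.6% of all rows tested lay above 0. At that unadjusted level 5 were higher and 2 lower, against 9.63% and 12% of all rows tested.

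**Figure D4:**
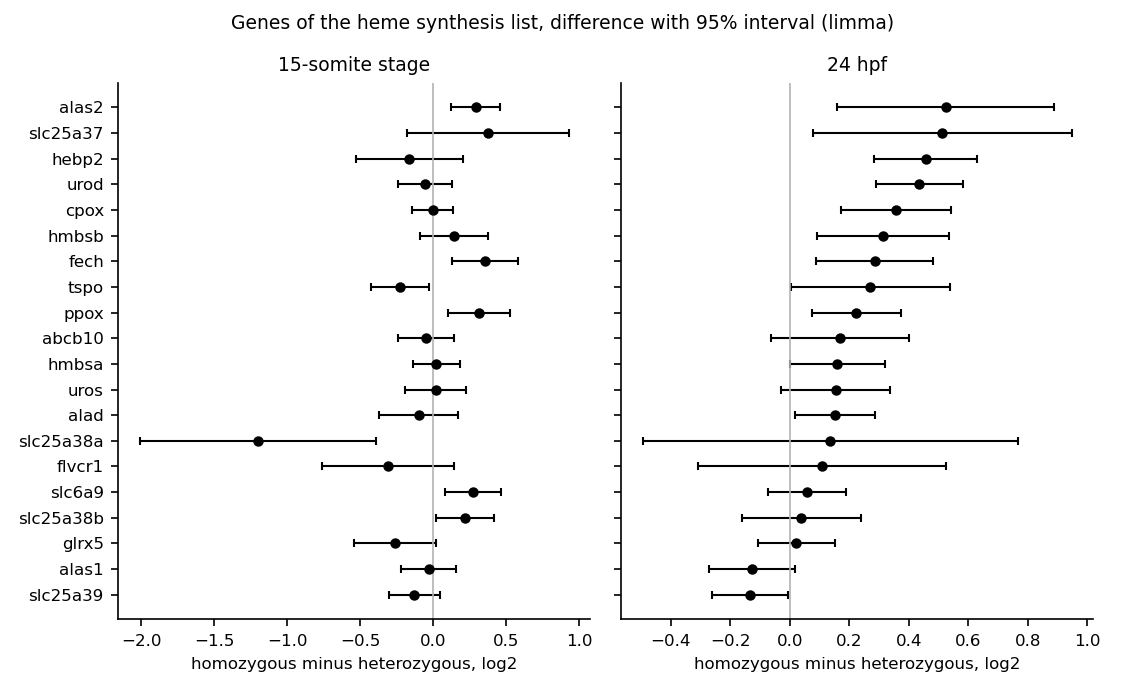
Homozygous minus heterozygous difference (x axis, log2, scaled separately in each panel) of the 20 tested genes of the heme synthesis list at the 15-somite stage (left) and at 24 hpf (right), ordered by the 24 hpf difference, with 95% intervals from limma and n = 3 libraries per genotype. At 24 hpf 18 of 20 points lie to the right of 0, led by alas2 at 0.52, and 50.7% of all rows tested lie above 0.

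The gene alas2, of the first and rate-limiting enzyme of heme synthesis in red cells, stood at 0.15, 0.16 and 0.060 in homozygous batches 2, a and b of the 15-somite stage, against -0.060, -0.24 and -0.19 in the heterozygous ones. These did not overlap, unlike most globin rows of the same libraries, and 29% of all rows tested did not overlap at that stage. The difference was 0.29 (SE 0.07, adjusted p = 0.0717). At 24 hpf alas2 stood at 0.16, 0.41 and 0.090 in the homozygous libraries, against -0.18, -0.090 and -0.64 in the heterozygous libraries (difference 0.52, SE 0.15, 1.44-fold, adjusted p = 0.505). As in most globin rows, hom 2 was highest and het 3 lowest. The gene urod, of a later enzyme of the pathway and named after its values were seen, stood at 0.35, 0.30 and 0.16 in homozygous batches 1, 2 and 3, against -0.16, -0.16 and -0.16 in heterozygous batches 1, 2 and 3. Its heterozygous libraries were nearly equal, and its difference of 0.44 (SE 0.06, 1.35-fold) had an adjusted p of 0.0576. It was called with quantile normalization (adjusted p = 0.0446) and with all 12 libraries in 1 fit (adjusted p = 0.0155).

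The other red cell lists were iron handling, membrane and skeleton, and enzymes. Their members are not all particular to red cells. Of 12 iron genes tested at the 15-somite stage 1 fell, tfa, the transferrin gene (-1.99, SE 0.30), where 3.77% of all rows tested fell. At 24 hpf no iron gene was called, and the unadjusted p was below 0.05 for 1 higher and 0 lower, against 3.11% and 3.95% of all rows tested. Of the membrane and skeleton genes 2 of 15 fell at the 15-somite stage (3.77% of all rows tested), the water channel gene aqp1a.1 (-1.40, SE 0.23), which vessels also express, and tmod4 (-0.57, SE 0.09), a tropomodulin gene of skeletal muscle. At 24 hpf 1 of 16 fell, aqp1a.1 (-0.98, adjusted p = 0.0293), where 0.287% of all rows tested fell. The anion exchanger gene slc4a1a, of the red cell membrane, differed by -0.17 (adjusted p = 0.654) in the 15-somite libraries and 0.58 in the 24 hpf libraries (adjusted p = 0.487, SE 0.17, 1.49-fold). At 24 hpf it stood at 0.36, 0.53 and 0.048 in homozygous batches 1, 2 and 3, against -0.048, -0.18 and -0.57 in heterozygous batches 1, 2 and 3. Here too the genotypes did not overlap, with homozygotes higher, as in 6.28% of all rows tested. The library hom 2 was highest and het 3 lowest.

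Of 20 genes of the red cell enzyme list 7 fell at the 15-somite stage and 0 rose, with a median of -0.26, where 3.77% of all rows tested fell and 0.995% rose. They were the carbonic anhydrase genes cahz (-0.73) and ca2 (-0.31), the nucleotidase gene nt5c2l1 (-0.96), the peroxidase gene gpx4a (-1.28), the pyruvate kinase gene PKLR (-1.74), the lipoxygenase gene alox12 (-0.31) and selenbp1 (-0.41). At 24 hpf none was called, and the unadjusted p was below 0.05 for 4 higher and 1 lower, against 3.11% and 3.95% of all rows tested. The 7 genes then stood at 0.27 for cahz, 0.18 for ca2, 0.30 for nt5c2l1, 0.18 for gpx4a, 0.027 for PKLR, -0.0027 for alox12 and 0.19 for selenbp1. Over the 5 red cell lists 13 of 87 genes fell and 0 rose at the 15-somite stage (3.77% and 0.995% of all rows tested). There 32 lay above 0 and 55 below, where 50.6% of all rows tested lay above 0. The 13 included tal1 and lmo2 of blood and endothelial progenitors, aqp1a.1, which vessels also express, and tmod4 of skeletal muscle. At 24 hpf 2 of 87 fell and 0 rose (0.287% and 0.0313% of all rows tested), and 59 lay above 0 and 28 below, where 50.7% of all rows tested lay above 0. The 13 became 8, 6 and 6 when homozygous batch 2, a or b was left out, and 10, 2 and 4 when heterozygous batch 1, 2 or 3 was. The 2 at 24 hpf became 0 without hom 1, hom 3, het 1, het 2 or het 3.

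Markers of vessel cells and of white blood cells were lower in homozygotes, in the libraries in which the globin rows stood higher at 24 hpf. Over 19 endothelial genes the mean per library lay between -1.34 and -1.01 in homozygotes and between 0.89 and 1.05 in heterozygotes at 24 hpf. In the earlier table it lay between -1.71 and -1.33 in homozygotes and between 1.21 and 1.37 in heterozygotes. Of 9 myeloid genes tested at the 15-somite stage 3 fell and 0 rose (3.77% and 0.995% of all rows tested), and their mean per library lay between -0.62 and -0.24 in homozygotes and between 0.25 and 0.69 in heterozygotes. Of 13 tested at 24 hpf 5 fell, among them lyz (-2.90) and mfap4 (-4.98), and 0 rose (0.287% and 0.0313% of all rows tested). The myeloid mean per library at 24 hpf lay between -1.42 and -1.04 in homozygotes and between 0.76 and 0.92 in heterozygotes. The deposited values are relative to each row's median and keep only a trace of its level. Whether a marker lay at 0 in a library was not determined, and the part of these cells in the globin values was not tested.

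**Figure D5:**
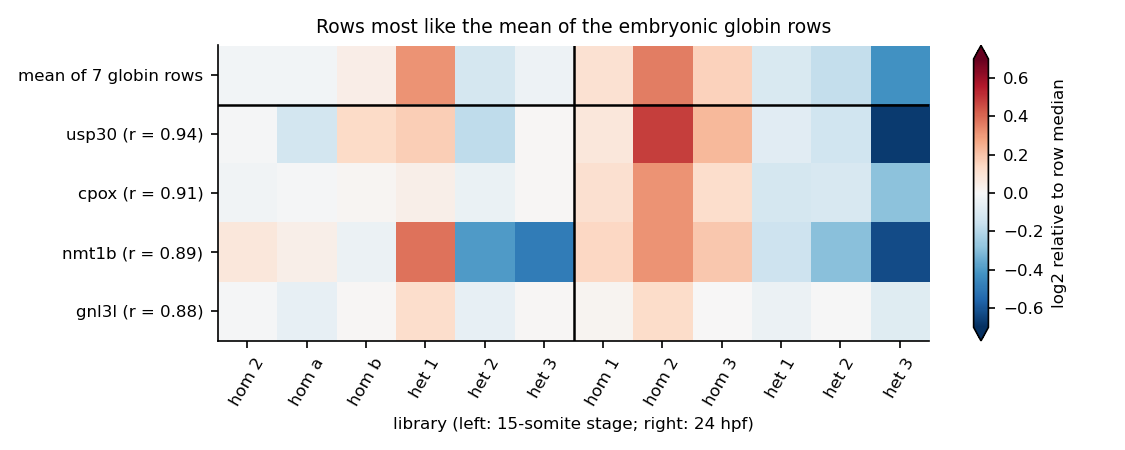
The mean of the 7 embryonic globin rows (top) and the 4 rows with a gene symbol most like it by Pearson's r over 12 libraries, in each library (x axis, homozygous left of heterozygous within each stage), coloured by log2 relative to the row's median within its stage. The globin mean is highest in hom 2 (0.36) and lowest in het 3 (-0.43) at 24 hpf, and highest in het 1 (0.32) at the 15-somite stage.

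The rows most like the mean of the globin rows were sought over the 12 libraries, among 17749 other rows tested at both stages. The nearest of all was si:ch211-5k11.2, the embryonic globin row named above, with r = 0.95. Among rows with a gene symbol, the nearest were usp30, of a mitochondrial deubiquitinase (r = 0.94), cpox, of the heme pathway enzyme coproporphyrinogen oxidase (r = 0.91), and nmt1b, of an N-myristoyltransferase (r = 0.89). Others near it were gnl3l (0.88), armc1l (0.85), tnnt2a (0.85), dhrs3a (0.85), znf395a (0.84) and cwf19l1 (0.84). At 24 hpf usp30, cpox and nmt1b differed by 0.56, 0.36 and 0.57 between the genotypes, and none was called (adjusted p = 0.664, 0.274 and 0.266). Of the genes singled out above, slc4a1a had r = 0.84, urod 0.80 and alas2 0.79. Further red cell genes named above were lower, among them selenbp1 at 0.47, cahz at 0.32, nt5c2l1 at 0.22 and ca2 at 0.21. So were gpx4a at 0.13, tal1 at 0.12 and klf3 at 0.08. No r is given for gata1a, whose libraries were in part ordered otherwise. Its lowest library at the 15-somite stage was het 1 (-0.18), where the globin mean was highest. At 24 hpf gata1a stood at -0.048 in hom 2, the highest library of the globin mean, and was itself highest in hom 1 (0.25). Its lowest library was then het 3 (-0.058), which was also the lowest of the globin mean. Over the 6 libraries of each stage alone, r was 0.47 at the 15-somite stage and 0.95 at 24 hpf for slc4a1a, 0.77 and 0.85 for urod, and 0.13 and 0.97 for alas2. These are descriptions over libraries of both genotypes, and each library is shared by all rows.

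Genes that flank the clusters in the RefSeq annotation were looked at after the globin values had been seen. On chromosome 3 nprl3 and kank2, which lie nearest on either side of the cluster, differed by 0.03 and -0.04 at the 15-somite stage and by -0.0063 and 0.46 at 24 hpf, and neither was called. The next genes outward, mpg and dock6, differed by -0.37 and 0.11 at the 15-somite stage and by 0.12 and -0.03 at 24 hpf, and neither was called. On chromosome 12 the nearest genes, rhbdf1b and aqp8a.2, had no tested values, so the next ones are given. There foxj1b, on one side of the cluster, differed by 0.02 and 0.17 at those stages and was not called (adjusted p = 0.956 and 0.917). Also on chromosome 12 aqp8a.1, the next gene but 1 on the other side and an aquaporin gene of vessels, fell in homozygotes, with differences of -2.5 at the 15-somite stage and -6.39 at 24 hpf (adjusted p = 0.00296 and 0.00303). The globin rows hbbe2 and hbbe3 of that chromosome stood at 0.48 and 0.38 at 24 hpf.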

How the data were processed

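The deposited values are log2 normalized expression, 1 table per stage, with 31172 rows and 6 libraries each. The submitters' processing notes name Zv9 (build) and DESeq. The aligner, counter, annotation, strand handling and each version: not given in the sources used here. From the values themselves, the authors had floored each at 1 before the log2 and then subtracted the row's median. No column was left unused. Only 42.3% to 55.9% of low values came out as whole reads (within 0.001 read), so no count test was run.

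Each row's median level was inferred from the binary step of its values (those above -0.2), the floor, and an upper bound from lower values. That bound was added after the first fits had been seen, because hbaa1 had been classed against its own values. Rows at 16 units or above were tested. Within a stage, homozygous libraries were compared with heterozygous ones by limma 3.58.1 in R 4.3.3, two-sided, with the prior spread estimated per level class (16 to 256, and 256 and above) and Benjamini-Hochberg adjustment over all rows tested. Figures were drawn with matplotlib 3.10.9. The SE and p-values combine the spread between 3 batches per genotype with the prior spread of the row's level class. The precision is limited by that number of batches, and a row's SE depends on the class it was placed in. The interaction used all 12 libraries. The mean over rows got no p. Scripts were tested on simulated data.

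The labels do not say that a replicate number at 24 hpf is shared between the genotypes, so no block was used in the main fit. Whether the batches were paired is not known. The members and the 8 gene lists (erythroid regulators, heme synthesis, iron handling, red cell membrane and skeleton, red cell enzymes, other globins, endothelial markers and myeloid markers) were chosen with earlier results of these data known. Named genes were all embryonic globin rows, the other globins, list members called at either stage (at most 8 per list), gata1a, alas2 and slc4a1a, the 10 most alike rows by r with a gene symbol (1 is not reported here), and etv2; urod, the further embryonic globin rows and the flanking genes were added after their values were seen. RefSeq's assembly GRCz12tu differs from the authors' build and was used only for names, chromosomes and neighbours. Alternatives were leaving out each library, quantile normalization, other level minimums, 1 prior spread, other level-class rules, a replicate block, and 1 fit of all libraries.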

Additional observations from a re-analysis of the deposited data

How the results depend on the processing

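No embryonic globin row was called within a stage under any setting run: 14 alternatives for the 15-somite stage and 15 for 24 hpf, with a lowest adjusted p of 0.0795 and 0.166 over their fits; with only the upper level class, 4 of the rows were tested at the 15-somite stage. At 24 hpf all 7 rows lay above 0 under each of the 15. Their count at an unadjusted p below 0.05 was 7 as reported, 6 with no upper bound on the level class, and 5 without hom 3, het 2 or het 3. The 1 row that the bound brought under 0.05 was hbbe1.1 row B, and 6 is also the count under 1 prior spread. The mean over rows differed by -0.14 to 0.08 at the 15-somite stage and by 0.35 to 0.51 at 24 hpf with 1 library left out, and by 0.03 at the 15-somite stage as a median over rows.

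Signs turned for some rows of small difference when 1 library was left out: at the 15-somite stage hbae3 ran from -0.10 to 0.18, hbbe2 from -0.082 to 0.15, urod from -0.11 to 0.0072 and cpox from -0.028 to 0.015 (0.0022 with quantile normalization), and at 24 hpf gata1a ran from -0.012 to 0.14. The interaction gave 0 to 1 called globin rows with 1 library left out. Genes of the 5 red cell lists called lower numbered 2 to 10 with 1 library of the 15-somite stage left out and 0 to 2 with 1 of 24 hpf. The call of hbaa1 also ended with 1 prior spread (adjusted p = 0.105), quantile normalization (0.0551) and the replicate block (0.106), and with the level class from values above -1 the row was not tested. With all 12 libraries in 1 fit cpox was called at 24 hpf (0.36, adjusted p = 0.0471). Over all rows at 24 hpf, the replicate block gave 22 lower and 3 higher calls in place of 55 and 6 and 0 globin rows; same-numbered libraries correlated at 0.102, 0.012 and 0.0027 in their deviations, and not every library correlated best with its own number. Calls lower over all rows numbered 247 with 1 prior spread, 79 to 442 with 1 library left out and 1233 with all libraries in 1 fit at the 15-somite stage, in place of 697, and at 24 hpf 32 with only the upper level class and 16 to 42 with 1 library left out, in place of 55. Calls higher at the 15-somite stage numbered 119 with no filter, 51 with 1 prior spread, 351 with quantile normalization, 12 to 81 with 1 library left out and 768 in 1 fit, in place of 184. The cause of these shifts was not tested. For the 15-somite stage no paired analysis was possible because its homozygous columns share only 1 number with the heterozygous ones. Depth in reads is unknown, and near-identical copies limit what a single row can show.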
